A study of Mus musculus with 4 samples.

Results

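The Tshz2/Fn1-gated nuclei are nuclei of the mouse hippocampus that passed a gate for excitatory neurons with abundant Tshz2 or Fn1. They numbered 1187 of the 37661 nuclei kept from 4 single-nucleus RNA libraries, and were chosen by their own counts. A nucleus was kept with at least 500 genes, at least 1000 unique molecular identifiers (UMIs, tags that count captured RNA molecules) and under 5% mitochondrial UMIs. A kept nucleus was a member if Tshz2 and Fn1 together had at least 5 UMIs and at least 0.1% of its UMIs, and if it held at least 1 UMI of Slc17a7. It also had to hold under 3 UMIs of the inhibitory genes Gad1 and Gad2, under 3 of the granule cell genes Prox1, Dsp and Trpc6, and under 3 of the endothelial genes Flt1 and Cldn5. The CA3 genes Nectin3, Spock1, Grik4, Cpne4 and Iyd had to make up under 0.2% of its UMIs.

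The libraries came from hippocampi of female C57BL/6J mice on chow diet, aged 8 weeks when a protocol of 10 weeks began. Each of the 4 groups had 1 library: wild type (WT) without exercise, WT with voluntary wheel running, APPNL-G-F without exercise, and APPNL-G-F with running. APPNL-G-F mice carry an App gene with a humanised amyloid-beta stretch and disease mutations, under its own promoter, and form amyloid plaques. The treatment text names a running wheel for every sample, so the groups follow the sample titles. The sources used here do not say how many animals a library pools. With 1 library a group, no difference between conditions has a replicate check, and intervals on single libraries cover counting error only.

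The subiculum is the main output of the hippocampus: it receives CA1 axons and sends its own to cortex, thalamus and hypothalamus. Tshz2 encodes a teashirt zinc finger transcription factor that marks near-projecting neurons of deep cortex and of the subiculum. Fn1 encodes fibronectin, a matrix glycoprotein whose RNA marks pyramidal neurons of the subiculum, and Slc17a7 encodes the vesicular glutamate transporter VGLUT1. Tshz2 (ENSMUSG00000047907) lies on chromosome 2, 169633013 to 170071816 of GRCm38 on the plus strand. Fn1 (ENSMUSG00000026193) lies on chromosome 1, 71585520 to 71653200 on the minus strand, and Slc17a7 (ENSMUSG00000070570) on chromosome 7, 45163949 to 45176142. A gene on the other strand overlaps Fn1, and reads of such a pair cannot be told apart if strand was not used in counting.

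Total UMIs per library ran from 64158446 to 91676884, and the median kept nucleus held 5362 to 7619 UMIs. The median member held 9317 UMIs in WT without exercise, 9190 in WT with exercise, 6657 in APPNL-G-F without exercise and 9436 in APPNL-G-F with exercise. The shallower APPNL-G-F library without exercise enters every genotype comparison without exercise and every exercise comparison in APPNL-G-F. Between 17 and 37 kept barcodes were shared by each pair of libraries, and 0 of them belonged to members of both. App itself stood at 494, 468, 461 and 513 CPM (UMIs of the gene per 1000000 UMIs of the summed nuclei) in the members of the 4 libraries, in the order given above. The 3′ tag counted here is the same for both alleles, so App gives no check of the genotype label.

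Members made up 342 of 11220 kept nuclei in WT without exercise, or 3.05% (95% exact Clopper-Pearson interval 2.74 to 3.38). They were 217 of 6887 in WT with exercise, 3.15% (2.75 to 3.59), 393 of 10093 in APPNL-G-F without exercise, 3.89% (3.52 to 4.29), and 235 of 9461 in APPNL-G-F with exercise, 2.48% (2.18 to 2.82). The highest and the lowest share were thus the 2 APPNL-G-F libraries, whose counting intervals do not overlap. At 10 UMIs and 0.2% of Tshz2 and Fn1, WT with exercise was highest at 2.25%, and the APPNL-G-F intervals overlapped (1.84 to 2.41 and 1.67 to 2.23). Of nuclei passing the other limits, WT with exercise was again highest, at 11.3%. The median depth of members was also lowest in APPNL-G-F without exercise, as given above, and its part in the share was not tested.

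**Figure D1:**
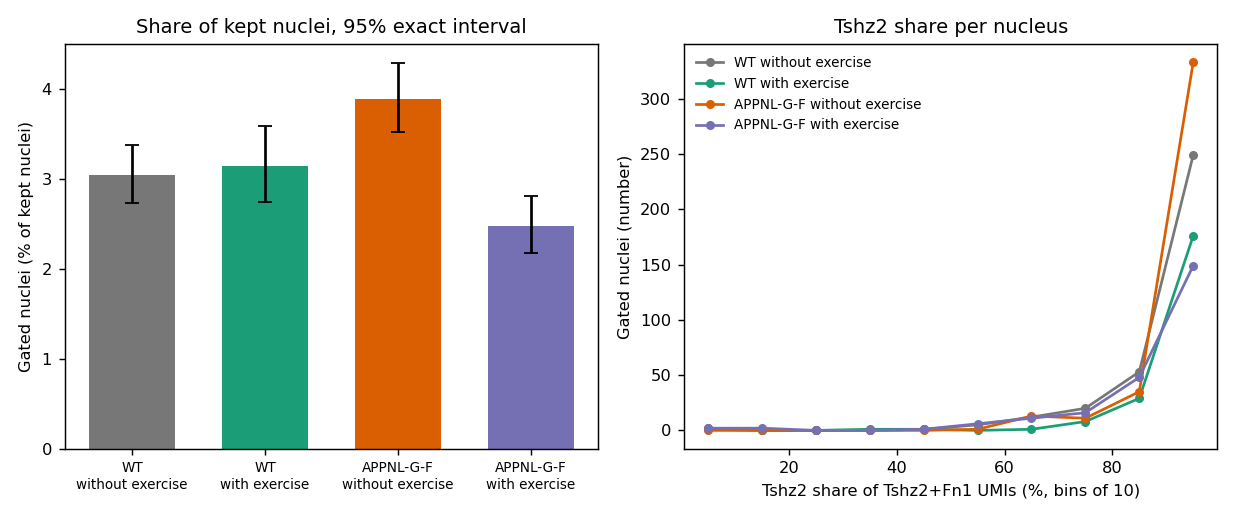
Left, members as a percentage of kept nuclei in each library, with the 95% exact binomial interval. Right, number of members by the share of Tshz2 in their Tshz2 plus Fn1 UMIs (percent, bins of 10), 1 line a library; in every library most members lie in the last bin, with few Fn1 UMIs.

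Tshz2, not Fn1, brought most members in. By the share of Tshz2 in the 2 genes' UMIs, 1072 members (90.3%) held at least 0.8, 108 lay between and 7 held at most 0.2, with 0 of these 7 in APPNL-G-F without exercise. These are ranges on a per-nucleus score, and 221 members lay near the upper limit. No Fn1 UMI was counted in 762 members and no Tshz2 UMI in 5, which at this depth does not show that the gene was silent there. In summed members Tshz2 stood at 2519, 2549, 2210 and 3005 CPM, and Fn1 at 205, 139, 102 and 290.1 CPM, in the library order above. Slc17a7 stood at 204, 185, 241 and 214 CPM. These levels follow from the rule and are given as a description.

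The limits of the rule were crossed in several ways. Of 2393 kept nuclei that met the Tshz2 and Fn1 limits, 805 held no Slc17a7 UMI, and for 630 that was the only limit missed. Those 630 were shallower, with a median of 5900 UMIs against 8363 over members. Their Vwc2l level was 731, 528, 577 and 319 CPM and their Npsr1 level 138, 213, 230.4 and 215 CPM, both in the range of the members described below or above it. Just inside the limit on Tshz2 plus Fn1 lay 10 nuclei with 5 UMIs and 19 with 6, and just outside lay 57 with 4 UMIs and 94 with 3. Vwc2l stood at 472 and 168 CPM in the first 2 of these sets and at 208 and 77.0 CPM in the other 2. The first 2 sets also had to meet the percentage limit on Tshz2 plus Fn1, which at so few UMIs only shallow nuclei can pass. They held 3814 and 4394 UMIs per nucleus. The sets with 4 and 3 UMIs were not held to it and had 8782 and 8571 UMIs per nucleus. Neither the numbers of nuclei nor the Vwc2l levels can thus be compared across the limit.

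The label subicular was checked against marker genes, with levels as means over the 4 libraries. Members were set beside CA1-gated and CA3-gated nuclei of the same libraries, which held at most 1 UMI of Tshz2 and Fn1 and passed limits on CA1 or CA3 genes. Slc17a6, which encodes the second vesicular glutamate transporter VGLUT2 and is used by subicular neurons, stood at 39.1, 27.5, 40.6 and 35.5 CPM in members. In the CA1 gate it stood at 0.829 to 2.10 CPM and in the CA3 gate at 0.239 to 1.42 CPM, so the groups did not overlap. Rxfp1, a relaxin receptor, averaged 170 CPM in members, 8.32 in the CA1 gate and 2.37 in the CA3 gate. Whrn, a scaffold protein, averaged 40.1, 2.23 and 5.87 CPM, and Teddm3 averaged 16.0, 4.07 and 0.308 CPM.

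Other subiculum markers were scarce: Cbln4 averaged 1.69 CPM in members, Tpbg 1.68, Dlk1 0.946 and Ly6g6e 0.504, and S100b and Gpc3 differed from neither gate by the rule for calls given below. Of near-projecting markers, Vwc2l averaged 441 CPM against 5.77 and 7.39 in the CA1 and CA3 gates, and Rapgef3 20.5 against 1.32 and 2.85. Sla2 and Slc17a8 averaged 1.67 and 0.153 CPM. Of 6 layer 6b genes, Ccn2, Moxd1, Cplx3 and Nxph4 averaged 0.0832 to 1.19 CPM and Lpar1 6.17 CPM. Svil averaged 17.0 CPM in members, 2.48 in the CA1 gate and 4.06 in the CA3 gate, and was called higher than in both. The layer 6b sum was 15.7 to 31.3 CPM in members and 3.94 to 12.7 CPM in the CA1 gate. It was 10.2 to 15.2 CPM in the CA3 gate and 40.0 to 57.1 CPM over all kept nuclei, above the members. Summed markers of layer 6 corticothalamic neurons stood at 596 to 909 CPM in members, 383 to 523 CPM in the CA1 gate, 1763 to 2701 CPM in the CA3 gate and 662 to 997 CPM over all kept nuclei. Those of upper-layer or entorhinal neurons stood at 292.5 to 319.9 CPM in members, 168 to 184 CPM in the CA1 gate, 69.7 to 81.3 CPM in the CA3 gate and 208 to 268 CPM over all kept nuclei. The label is thus borne out by some of its markers and not by others, and the nuclei are called by their gate below.

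Oligodendrocyte genes summed to 213.7 to 478.6 CPM in members and 578 to 1096 CPM over all kept nuclei. Inhibitory genes summed to 56.7 to 174.5 against 779 to 1018 CPM, and astrocyte genes to 6.7 to 27.5 against 48.1 to 112 CPM. Microglial genes were near all kept nuclei (39.4 to 71.6 against 36.5 to 73.6 CPM). Excitatory genes (1276 to 1708 against 1445 to 2022 CPM) were lower in members in each library. CA1 genes (458 to 524 against 373 to 405 CPM) and thalamus genes (659 to 848 against 525 to 764 CPM) were higher in each library. A doublet score against simulated pairs called 95 members (8.00%) doublets: 40, 8, 29 and 18 in the library order. The limit of the score was set in advance to call about 8.98%, 5.51%, 8.07% and 7.57% of kept nuclei. Of members it called 11.7%, 3.69%, 7.38% and 7.66%. It called 59.9%, 45.3%, 51.95% and 51.4% of simulated pairs, so the count does not measure how many members are doublets. The called members were kept in the main results.

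The members fell into 9 clusters of 333, 264, 176, 121, 111, 53, 49, 46 and 34 nuclei, numbered by size. The clusters were made from the members' own expression, so their leading genes are a description with no test, and they stay unnamed. Cluster 1 was led by Ndst4, Stac, Gfra1, Etv1 and Bcl6, cluster 2 by Atp10b, Gpc6, Pdzrn3, Cux2 and Tacr3, and cluster 3 by Sntb1, Sema5b, Kcnh8, Kcnip1 and Cntnap4. Cluster 5 was led by Cdc14a, Unc13c, Wfs1, Esr2 and Hmcn1, cluster 6 by Otof, Dchs2, Tcerg1l and Tll1, cluster 8 by Foxp2, Cobll1 and Cdh18, and cluster 9 by Zfp804b, Gpc5 and Reln. Glial genes were among the leaders of the other clusters. Cluster 4 was led by Ebf2, Inpp5d, Mertk and Zbtb20, and the doublet score called 45 of its 121 nuclei. Ebf2 stood there at 8.64, 0.0, 43.4 and 277 CPM in the library order, so its lead came mostly from APPNL-G-F with exercise. Cluster 7 was led by Prr5l, St18, Mog and Mobp, genes of oligodendrocytes, and the score called 32 of its 49 nuclei.

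Tshz2 was high in every cluster, from 1574 CPM in cluster 4 to 3760 CPM in cluster 3, as the rule demands. Fn1 was uneven: it stood at 355 CPM in cluster 1 and 370.2 CPM in cluster 7, but at 15.5 CPM in cluster 2, 3.11 CPM in cluster 6 and 3.36 CPM in cluster 8. The near-projecting marker Vwc2l was at 1400 CPM in cluster 3 and 969 CPM in cluster 2, against 12.6 CPM in cluster 1. Rxfp1 was highest in cluster 6, at 665 CPM, followed by cluster 1 at 281 CPM, and stood at 2.01 CPM in cluster 5. Cux2, a homeodomain factor of upper cortical layers, stood at 370.1 CPM in cluster 2. Hs3st4, a heparan sulfate sulfotransferase of deep-layer neurons, stood at 2953 CPM in cluster 8 and 2766 CPM in cluster 3.

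Levels also differed between nuclei on the Tshz2 side and mixed nuclei. Vwc2l stood at 499 CPM in nuclei on the Tshz2 side and 23.3 CPM in the 108 mixed nuclei, and Hs3st4 at 676 against 132 CPM. Rxfp1 went the other way, at 163 against 235 CPM. The 7 nuclei at the Fn1 end held Vwc2l at 13.7 CPM, Hs3st4 at 933 CPM and Rxfp1 at 0.0 CPM. Hs3st4 and Rxfp1 thus showed no gradient along the score from Tshz2 to Fn1. The test of the 2 ends against each other was not possible with 7 nuclei at the Fn1 end.

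**Figure D2:**
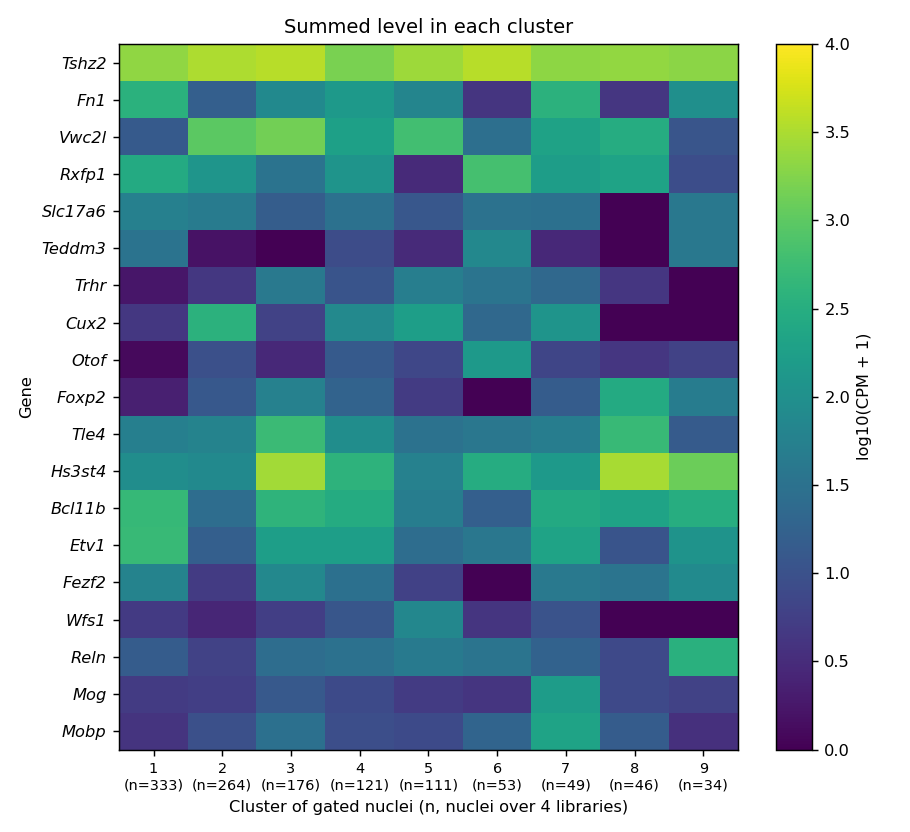
Summed level of 19 genes (rows) in the 9 clusters of members (columns, with the number of nuclei), as log10 of CPM plus 1. Vwc2l is highest in clusters 2 and 3 and low in cluster 1, where Fn1 is high, and the oligodendrocyte genes Mog and Mobp stand out in cluster 7.

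The mix of clusters was not the same in the 4 libraries. Cluster 1 held 32.2%, 29.0%, 19.6% and 35.3% of members in the library order, cluster 2 19.9%, 24.4%, 25.7% and 17.9%, and cluster 5 5.56%, 8.76%, 15.3% and 5.53%. APPNL-G-F without exercise thus had the smallest share of the Fn1-rich cluster 1 and the largest of cluster 5. The genes that set the clusters can themselves differ between the libraries, so these shares are a description of makeup. In the comparisons of conditions below, values with the mix held at its mean over the 4 libraries are given for some genes and lists only. With the mix held, 3 of the 40 named condition values moved by more than their counting interval.

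**Figure D3:**
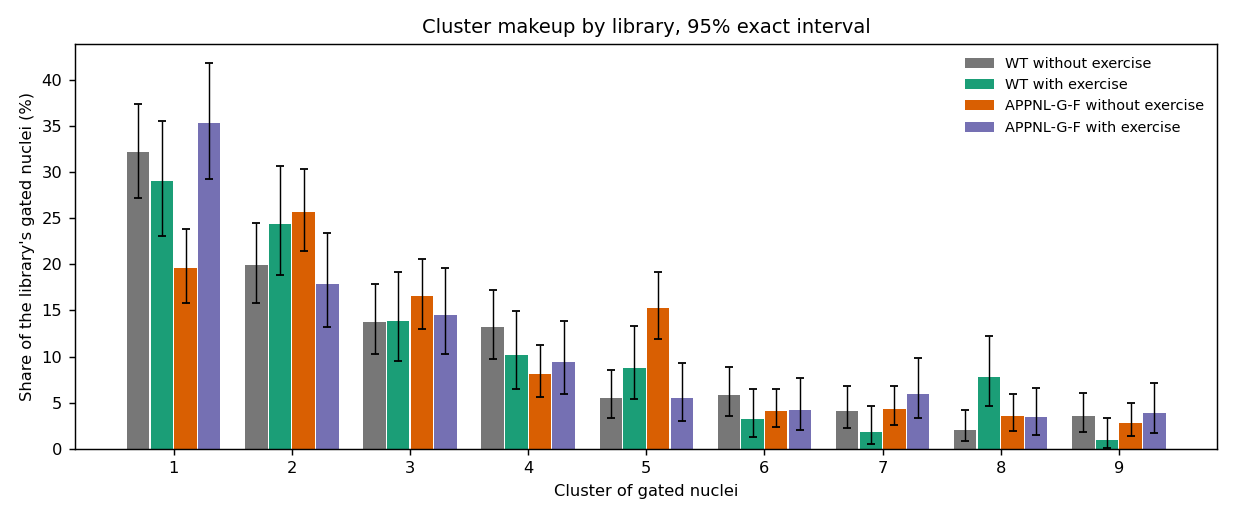
Share of each library's members (percent) in the 9 clusters, 1 bar a library, with the 95% exact binomial interval for counting error. In cluster 1 APPNL-G-F without exercise is lowest at 19.6%, and in cluster 5 it is highest at 15.3%.

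Members were then compared with CA1-gated nuclei (2469) by edgeR's quasi-likelihood test on UMIs summed per library and gate, with the library as a block. Genes of either gate's rule were left out. A gene was called at a Benjamini-Hochberg adjusted p under 0.05 with at least a 2-fold change, and p-values measure the spread over 4 libraries of different conditions. Of 12571 genes tested, 765 (6.09%) were higher in members and 424 (3.37%) lower, and the median log2 fold change of all genes was -0.03. The genes used to choose the gates also bring along genes that vary with them, so the calls describe what goes with Tshz2 or Fn1 in these nuclei.

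Npsr1, the receptor of neuropeptide S (ENSMUSG00000043659, chromosome 9, 24097996 to 24316398), had the largest called difference from CA1. Its level was 143, 146, 166 and 136 CPM in the members of the 4 libraries and 0.897, 0.414, 0.349 and 1.40 CPM in the CA1 gate. No member sum came near a CA1 sum, and the log2 fold change was 7.37 ± 0.15 (SE, n = 4 libraries, adjusted p = 3.04e-21). Vwc2l, a secreted protein with a von Willebrand factor C domain (ENSMUSG00000045648, chromosome 1, 70725715 to 70885397), stood at 446, 525, 517 and 274 CPM against 4.10 to 7.34 CPM. APPNL-G-F with exercise was the lowest of the 4 for Vwc2l, and the log2 fold change was 6.13 ± 0.13. No UMI of either Npsr1 or Vwc2l was counted in 133 of 342, 81 of 217, 116 of 393 and 101 of 235 members in the library order. The sums thus do not show that each member held these RNAs.

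Tshz3, the paralogue of Tshz2, stood at 252, 270, 271 and 465 CPM in members and 6.84 to 12.4 CPM in the CA1 gate. All 4 libraries were higher, with a log2 fold change of 5.03 ± 0.08 (edgeR adjusted p = 6.08e-23). The other genes among the 10 largest were Bmper, a secreted regulator of BMP signalling (6.25), the lipid phosphatase Sgpp2 (5.81), the ubiquitin ligase Pdzrn3 (5.21), the long noncoding RNA Rmst (5.11), Mcc (4.86), the semaphorin Sema5b (4.85) and Cux2 (4.79), as log2 fold changes. Each was higher in members in 4 of 4 libraries, and the largest adjusted p of the 10 was 9.99e-17. Genes on the other strand overlap Npsr1, Sgpp2, Pdzrn3, Mcc and Cux2, which makes their counts less certain.

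On the lower side stood Galntl6, of the GalNAc-transferase family, at 846, 968, 791 and 704 CPM in members against 4877, 5070, 5408 and 3274 CPM in the CA1 gate, a log2 fold change of -2.58 ± 0.06. Adam12, a membrane metalloprotease, averaged 12.6 ± 0.581 CPM (SD, n = 4) in members against 120.3 ± 19.5 CPM and had the largest decrease (-3.35). It was followed by the collagen gene Col11a1 (-3.25), Cntnap5c (-2.97) and the zinc finger factor Zfhx4 (-2.81). Zeb2, a transcriptional repressor, averaged 275 against 1494 CPM (-2.54), and Cacnb2, a calcium channel beta subunit, 619 against 3026 CPM (-2.38). Pkp2 (-2.31), Iqgap2 (-2.21) and Tafa1 (-2.21) completed the 10, all lower in 4 of 4 libraries. Genes on the other strand overlap Zfhx4, Galntl6, Zeb2, Cacnb2, Iqgap2 and Tafa1.

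Against CA3-gated nuclei (2892), 1016 of 13310 genes (7.63%) were higher in members and 767 (5.76%) lower, with a median over all genes of -0.00058. Npsr1 again had the largest difference (6.84), followed by Rxfp1 (6.07), Vwc2l (5.76), Pdzrn3 (5.66), Vat1l (5.64), Ptprt (5.63), Rmst (5.45), Cdh6 (5.25), Stac (5.04) and Tox (4.96). The members' sums are the same in both comparisons, so a gene named in both is not 2 independent results. Ptprt, a receptor tyrosine phosphatase, stood at 1469, 1377, 1198 and 1240 CPM in members and 25.5, 19.6, 17.8 and 39.0 CPM in the CA3 gate, with no overlap. Tox, an HMG-box factor, averaged 642 ± 79.2 CPM (SD, n = 4) against 19.1 ± 5.44. Stac was uneven among members, at 460 CPM in cluster 1 and 64.7 CPM in the other members.

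Lower than in CA3 were Adamts9, a matrix protease (-4.59), the Ras-like Rerg (-4.25), Tspan18 (-4.20), Strip2 (-4.17), Il16 (-4.11), Ccbe1 (29.2 against 440.3 CPM), Dpf3 (-3.97), Smoc2 (-3.72), the postsynaptic scaffold Homer3 (-3.72) and Trps1 (-3.69). Rerg stood at 8.37, 13.1, 10.7 and 12.5 CPM in members and 170 to 212 CPM in the CA3 gate. Trps1, a repressor of the GATA family, averaged 73.7 against 857 CPM. In members it was highest in APPNL-G-F without exercise, at 135 CPM, against 42.7 to 65.9 CPM in the other libraries. Of the 20 genes named against CA3, other-strand genes overlap Npsr1, Pdzrn3, Vat1l, Ptprt, Stac, Tox, Adamts9, Il16, Ccbe1, Smoc2 and Homer3.

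**Figure D4:**
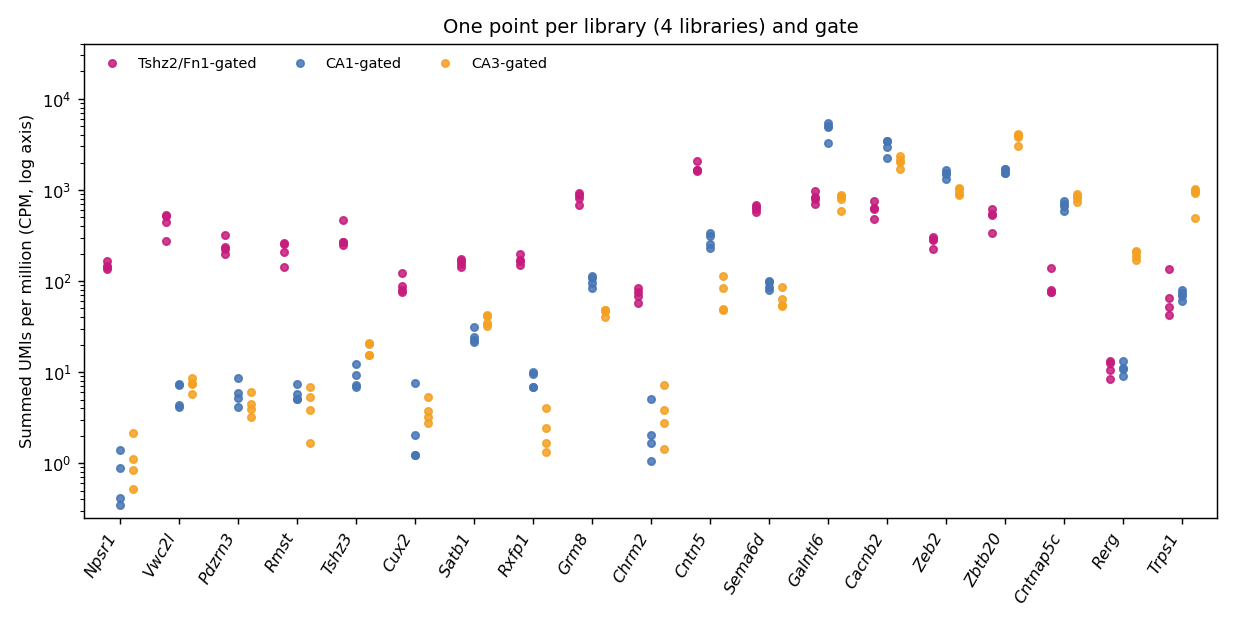
Summed level in CPM (log axis) of 19 genes in members, CA1-gated and CA3-gated nuclei, 1 point for each of the 4 libraries. For Npsr1, Vwc2l and Rxfp1 all 4 member sums lie above all CA1 and CA3 sums, whereas Galntl6 and Rerg are lower in members than in 1 of the 2 other gates.

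Counts of called genes in the lists below stand beside the shares of all genes tested. These were 6.09% higher and 3.37% lower than in CA1, and 7.63% higher and 5.76% lower than in CA3. Receptors for glutamate differed by family. Of 7 metabotropic receptor genes, all tested, 4 were higher than in CA1 (Grm8, Grm4, Grm2 and Grm3) and 0 lower, with a list median of 1.44. Grm8, a presynaptic receptor that lowers release, stood at 817, 876, 935 and 685 CPM in members and 95.96, 108, 114 and 84.4 CPM in the CA1 gate (log2 fold change 2.94 ± 0.05, edgeR adjusted p = 3.59e-22). The same 4 genes were called higher than in CA3, where Grm8 averaged 45.7 CPM. Of 15 ionotropic receptor genes tested of 17, 3 were higher than in CA1 and 1 lower, with a median of -0.02. The kainate receptor genes Grik1 (193 against 17.3 CPM) and Grik3 (138 against 14.1 CPM) were among the 3. The 1 was the NMDA receptor subunit Grin2a, at 2116, 2041, 1507 and 2074 CPM in members and 4634, 4543, 3333 and 4324 CPM in CA1 (-1.22).

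Of 12 GABA-A receptor genes tested of 13, 1 was higher than in CA1 (Gabrg1) and 1 lower (Gabra5). These counts are near the shares of all genes, 6.09% higher and 3.37% lower. Against CA3, 6 were higher and 1 lower, with a median of 0.83. Among the 6, Gabra3 averaged 85.1 against 15.2 CPM and Gabrg3 1008 against 352 CPM. Gabra5, the subunit typical of extrasynaptic receptors in hippocampal pyramidal neurons, averaged 103 CPM in members, 204 in CA1 and 234 in CA3.

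Ion channels were called in both directions. Of all genes, 6.09% were higher and 3.37% lower than in CA1, and 7.63% higher and 5.76% lower than in CA3. Of 32 potassium channel genes, 5 were higher and 3 lower than in CA1, and 7 were higher and 5 lower than in CA3. Kcnh7, of the ERG family, averaged 1952 CPM in members, 1667 CPM in CA1 (not called) and 98.5 CPM in CA3 (log2 fold change 4.19). Kcnip1, which modulates A-type channels, averaged 109 CPM against 7.34 CPM in CA1, and Kcnc2, a Kv3 channel, 120 CPM against 369 CPM. Kcnip1 was uneven among members, at 575 CPM in cluster 3 and 32.3 CPM in the others. Of 23 sodium, calcium and HCN channel genes tested of 25, 2 were higher and 2 lower than in CA1, near the shares of all genes. Against CA3, 5 were higher and 3 lower. Cacnb4, a calcium channel beta subunit, averaged 729.8 CPM in members, 332 CPM in CA1 (1.03) and 208 CPM in CA3 (1.71).

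Peptide signalling genes were called in one direction against CA1: of 21 tested of 41, 8 were higher and 0 lower, with a median of 0.42. The 8 were Rxfp1, the peptide gene Adcyap1, the thyrotropin-releasing hormone receptor Trhr, the opioid receptors Oprm1 and Oprd1, the cholecystokinin receptor Cckbr, the tachykinin receptor Tacr3 and the somatostatin receptor Sstr2. Several were scarce, such as Adcyap1 at 4.89 CPM in members. Against CA3, 11 of 26 were higher, among them the peptide gene Nts (5.90 against 0.288 CPM), and 3 lower, among them Npy2r (3.05 against 18.9 CPM).

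Receptors for acetylcholine and monoamines split. Of 20 tested of 31, 4 were higher and 6 lower than in CA1. Chrm2, the M2 muscarinic receptor, stood at 76.2, 68.6, 82.9 and 57.2 CPM in members and 2.05, 1.66, 1.05 and 5.12 CPM in the CA1 gate (4.71 ± 0.20), with no overlap. Htr2a, a serotonin receptor, averaged 5.81 against 23.2 CPM, and Chrna7, the alpha7 nicotinic subunit, 55.9 against 159 CPM. Against CA3, 6 of 18 tested were higher and 4 lower, and Chrna5 averaged 10.3 against 0.536 CPM.

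Of 30 transcription factors of excitatory identity tested of 32, 12 were higher than in CA1 and 1 lower, with a median of 0.68. The 12 included Tshz3, Cux2, Foxp2 (22.3 against 2.59 CPM), Satb1, Mef2c (228 against 45.8 CPM), Rorb, Tle4, Sox5 and Fezf2, which mark different cortical layers. Satb1, a chromatin organiser, stood at 168, 174, 153 and 144 CPM in members and 21.3 to 31.0 CPM in the CA1 gate (2.59 ± 0.09). The 1 was Zbtb20, a factor of hippocampal identity, at 615, 550.2, 335 and 533 CPM against 1695, 1534, 1529 and 1701 CPM (-1.79 ± 0.08). Against CA3, where Zbtb20 averaged 3765 CPM, 14 of 32 were higher and 4 lower, and Foxp2 averaged 1.57 CPM there.

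Adhesion and guidance genes were called often. Of 32 cadherins and contactins, 14 were higher and 4 lower than in CA1 (median 0.64), and 13 were higher and 3 lower than in CA3 (median 0.30). Cntn5, a contactin, stood at 1654, 1650, 2057 and 1621 CPM in members and 312, 229, 338 and 255 CPM in CA1 (2.53 ± 0.06). Cntnap2 was among those lower, at 1897 against 5656 CPM. Of 44 semaphorin, plexin, Eph and netrin genes tested of 45, 14 were higher and 4 lower than in CA1, led by Sema5b and the netrin receptor Unc5d (467 against 51.2 CPM). Against CA3, 11 of 45 were higher and 10 lower, and the median was -0.28. Of 32 matrix and fibronectin receptor genes tested of 43, 5 were higher and 6 lower than in CA1. The integrin genes Itga9, Itgb8 and Itga3 were among the higher and Itga4 and Itga8 among the lower.

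Of 32 genes of synaptic vesicle release tested of 33, 4 were higher than in CA1 (Rims3, Unc13c, Sv2c and Cplx1) and 0 lower. Rims3 averaged 16.2 against 0.629 CPM, and Unc13c, a priming factor, 39.0 against 3.35 CPM. Clock genes were called mainly against CA3: 10 of 19 were higher and 0 lower, with a median of 1.0, and against CA1 3 were higher and 0 lower. Hlf, a clock-controlled factor, averaged 106 CPM in members, 24.6 in CA1 and 14.0 in CA3. Of 16 immediate early genes tested of 21, 1 was higher than in CA1 and 3 lower (Nptx2, Nr4a3 and Bdnf), and 4 were higher and 2 lower than in CA3.

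The lists of OXPHOS, chaperone, amyloid processing, cholesterol synthesis and ribosomal protein genes gave few calls. Of all genes, 6.09% were higher and 3.37% lower than in CA1, and 7.63% and 5.76% than in CA3. In lists of 19 to 26 genes, counts of 0 or 1 differ little from these shares. In the CA1 comparison 0 of 57 OXPHOS genes, 0 of 25 chaperone genes, 0 of 21 amyloid processing genes, 0 of 19 cholesterol synthesis genes and 1 of 56 ribosomal protein genes (Rpl26, lower) were called by edgeR. In the CA3 comparison it was 0 of 57, 0 of 26, 1 of 21 (Bace2, lower), 1 of 20 (Mvd, lower) and 0 of 56.

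The comparisons of conditions set single libraries side by side, and a gene was past the fold at a 2-fold difference with at least 100 UMIs over both libraries. Genotype without exercise and exercise in APPNL-G-F share the APPNL-G-F library without exercise, and each comparison with running shares a library in the same way. For the highest and lowest genes named in each comparison, ratios in the CA1 gate are given beside those of members unless a CA1 sum was 0. Both gates come from the same libraries. Malat1, a nuclear long noncoding RNA, differed between the libraries in members (25308, 49093, 79722 and 28676 CPM) and in the CA1 gate (31870, 61093, 98076 and 36228 CPM). Oligodendrocyte markers summed to 267, 214, 319 and 479 CPM in members and inhibitory markers to 80.4, 56.7, 116 and 174 CPM, both highest in APPNL-G-F with exercise. Choroid plexus markers summed to 6.42, 9.73, 50.9 and 7.25 CPM in members and 13.3, 14.5, 53.8 and 11.6 CPM in the CA1 gate, highest in APPNL-G-F without exercise in both. The part of these differences in the results below was not tested.

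For genotype without exercise, 205 of 7442 genes (2.75%) were past the fold higher in APPNL-G-F and 93 (1.25%) lower. Rnf121, a membrane ubiquitin ligase, stood at 43.8 CPM in WT and 150.5 CPM in APPNL-G-F, and at 40.2 and 45.1 CPM in the running libraries, so the APPNL-G-F library without exercise stood apart from the other 3. Its log2 ratio was 1.78 (95% exact interval 1.52 to 2.05, counting error only) and that in the CA1 gate 1.55. Rad51ap2 (2.03; CA1 gate 1.80), Hmcn1, Morn2 (1.90; CA1 gate 1.31) and the AP-1 gene Junb (1.81; CA1 gate 0.98) were the other 4 of the 5 largest. Hmcn1, a leading gene of cluster 5, had a ratio of 1.92, and 0.73 with the cluster mix held. In the CA1 gate it was scarce, at 0.641 CPM in WT and 1.75 CPM in APPNL-G-F. Its ratio of 1.45 there had an interval of -0.24 to 3.35.

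Tmem163, a zinc transporter of vesicles, went the other way. It stood at 146, 124, 34.6 and 52.8 CPM, higher in both WT libraries than in both APPNL-G-F libraries, with a ratio of -2.07 (CA1 gate -3.07). Mid1, a ubiquitin ligase, stood at 45.5 CPM in WT without exercise and at 12.7, 7.99 and 14.9 CPM in the other libraries (-2.51; CA1 gate -2.18). Rabif (-1.73; CA1 gate -2.10), the adenylyl cyclase Adcy5 (-1.61; CA1 gate -0.68) and the kinase Cdk9 (-1.61; CA1 gate -1.54) were the other 3 of the 5 lowest. Genes on the other strand overlap Hmcn1, Morn2, Junb, Mid1 and Tmem163.

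For exercise in WT, 3 of 6820 genes (0.044%) were past the fold higher and 38 (0.557%) lower, and scaling by TMM factors gave 8 and 29. Sv2c, a synaptic vesicle protein, stood at 16.2 CPM without and 37.2 CPM with exercise (ratio 1.20; CA1 gate 0.19), and at 21.98 and 21.35 CPM in APPNL-G-F. In the CA1 gate Sv2c was scarce, at 2.18 and 2.49 CPM in the WT libraries. The next 4 by ratio among genes that pass the rule for named genes were not past the fold: Malat1 (0.96; CA1 gate 0.94), Xpc (0.95; CA1 gate -0.45), Kbtbd11 (0.92; CA1 gate 0.24) and Diras2 (0.85; CA1 gate 0.97). Gas5, a noncoding host of small nucleolar RNAs, stood at 66.4, 22.9, 63.3 and 68.1 CPM, with the WT running library apart from the other 3 (-1.54; CA1 gate -1.68). Tcerg1l stood at 57.8, 13.1, 27.0 and 66.5 CPM (-2.14; CA1 gate -0.34). It is a leading gene of cluster 6, which held 5.85% of members in WT without exercise and 3.23% in WT with exercise, and its ratio was -1.48 with the cluster mix held. Mid1 (-1.84; CA1 gate -1.65), Miip (-1.65; CA1 gate -0.98) and Svil (-1.59) were the other 3 of the 5 lowest. Svil was scarce in the CA1 gate, at 2.43 CPM without and 0.0 CPM with exercise in WT, so its ratio there is left out. Genes on the other strand overlap Sv2c, Kbtbd11, Gas5 and Mid1.

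For exercise in APPNL-G-F, 723 of 6979 genes (10.4%) were past the fold higher in the running library and 357 (5.12%) lower, and with TMM factors it was 521 and 427. The median log2 ratio of these 6979 genes was 0.18. Cacna1h, a T-type calcium channel, stood at 68.4, 39.8, 29.6 and 142 CPM, lowest and highest in the 2 libraries compared (ratio 2.26, interval 1.92 to 2.61; CA1 gate 1.79). Cep131, a centriolar satellite protein (2.31; CA1 gate 1.505), Lrrc45 (2.27; CA1 gate 1.96), the protease Bmp1 (2.15; CA1 gate 2.06) and the synaptic adhesion protein Elfn1 (2.11) were the others of the 5 largest. Elfn1 had a ratio of 0.71 in the CA1 gate, where it was scarce.

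P2ry14, a receptor of UDP-sugars, stood at 88.8, 87.6, 179 and 14.5 CPM, with APPNL-G-F without exercise above and APPNL-G-F with exercise below both WT libraries. Its ratio was -3.62 (interval -4.15 to -3.14; CA1 gate -3.03). The other 4 of the 5 lowest were Rsf1os1 (-4.34; CA1 gate -3.86), Nrg3os (-3.44; CA1 gate -3.36), Sycp2 (-3.21; CA1 gate -2.34) and Lrrc19 (-3.05; CA1 gate -2.83). P2ry14 overlaps Med12l on the other strand, Rsf1os1 overlaps Rsf1, Nrg3os overlaps Nrg3 and Lrrc19 overlaps Ift74. These counts are uncertain, as is that of Cacna1h, since reads from the partner may be included if strand was not used.

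For genotype with exercise, 417 of 6293 genes (6.63%) were past the fold higher in APPNL-G-F and 66 (1.05%) lower, and with TMM factors 213 and 101. The median of these 6293 genes was 0.21. Tmem181a stood at 80.9, 63.9, 258 and 361 CPM, higher in both APPNL-G-F libraries than in both WT libraries (2.50; CA1 gate 2.17). Tcerg1l (2.34; CA1 gate 0.62; 1.52 with the mix held), Cmss1 (2.18; CA1 gate 2.12) and Lrsam1 (2.08; CA1 gate 1.41) were also among the 5 largest. Lowest were P2ry14 (-2.59; CA1 gate -1.75), Nrg3os (-2.29; CA1 gate -2.22), Sox5os4 (-2.23; CA1 gate -1.28), Rapgef4os1 (-2.02; CA1 gate -2.00) and the adhesion protein Flrt3 (-2.02; CA1 gate -1.54). Genes on the other strand overlap each of these except Tcerg1l.

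The rule genes themselves differed between the libraries within members. The log2 ratio of Fn1 was -1.01 between genotypes without exercise and 1.06 between genotypes with exercise, and -0.56 with running in WT and 1.51 with running in APPNL-G-F. With the cluster mix held these were -0.68, 0.93, -0.48 and 1.13. Since members were chosen by Fn1, these values are a description. Bcl11b, a factor of deep-layer neurons high in the Fn1-rich cluster 1, stood at 292, 321, 186 and 422 CPM in the library order. Its ratio for exercise in APPNL-G-F was 1.18, and 0.94 with the mix held.

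For each gene list, the log2 ratios of its genes with at least 50 UMIs are summarised by their median. Over all 11241 such genes the medians were -0.06 (genotype without exercise), -0.12 (exercise in WT), 0.14 (exercise in APPNL-G-F) and 0.22 (genotype with exercise), and values below keep that order. For genotype without exercise, 5085 of all genes (45.2%) were higher and 6156 lower. For exercise in APPNL-G-F, 6510 (57.9%) were higher and 4731 lower. Ribosomal protein genes, which build the ribosome, had medians of 0.84, 0.22, -0.98 and -0.22, with 50 of 56 higher for genotype without exercise and 50 of 56 lower for exercise in APPNL-G-F. OXPHOS genes, nuclear genes of the mitochondrial respiratory chain, had medians of 0.54, 0.02, -0.63 and -0.13, with 49 of 57 higher and 50 of 57 lower in those same comparisons. In summed CPM, OXPHOS genes stood at 1482, 1457, 2057 and 1339 and ribosomal protein genes at 906, 978, 1497 and 820. APPNL-G-F without exercise was thus highest for both lists, and it enters those comparisons with opposite sign. In the CA1 gate their medians were 0.45 and -0.88 for ribosomal proteins and 0.25 and -0.54 for OXPHOS. Mitochondrial UMIs made up 0.0116%, 0.0278%, 0.0179% and 0.00665% of member UMIs, and their part in these values was not tested.

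Guidance and matrix genes had medians of the opposite sign. Semaphorin, plexin, Eph and netrin genes had a median of -0.28 for genotype without exercise (35 of 43 lower, against 6156 of all 11241 genes) and 0.58 for exercise in APPNL-G-F (29 of 43 higher, against 57.9% of all 11241 genes). The CA1-gate median for the latter was 0.53. With the cluster mix held, the median for genotype without exercise was -0.18, against -0.08 for all genes. Matrix and fibronectin receptor genes had a median of -0.14 for genotype without exercise. There 14 of 29 (48.3%) were higher, near the 45.2% of all genes. For exercise in APPNL-G-F their median was 0.58, with 24 of 29 higher, and 0.85 with the cluster mix held. The CA1-gate median for exercise in APPNL-G-F was 0.39. Plxna1, a semaphorin receptor subunit, had a ratio of 1.65 there.

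Receptor lists differed in sign for exercise in APPNL-G-F, where all genes had a median of 0.14. Of all 11241 genes, 57.9% were higher there and 4731 lower. Monoamine and acetylcholine receptor genes had a median of 0.32, with 8 of 14 higher, a share near that of all genes. With the cluster mix held their median was 0.17, against 0.16 for all genes, and in the CA1 gate it was 0.20. Ionotropic glutamate receptor genes had a median of 0.09, with 9 of 15 higher, also near all genes. Their CA1-gate median was -0.04. GABA-A receptor genes had a median of -0.30, with 11 of 12 lower, peptide signalling genes -0.39, with 16 of 20 lower, and cadherins and contactins -0.37, with 23 of 30 lower. The CA1-gate medians were -0.33, -0.39 and -0.29. Oprm1, the mu opioid receptor, stood at 24.3, 13.5, 34.3 and 8.06 CPM, a ratio of -2.09 (interval -2.86 to -1.39). The potassium channel list had a median of 0.39 there, with 21 of 32 higher against 57.9% of all genes, and the sodium-activated channel Kcnt1 a ratio of 1.96.

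Cholesterol synthesis genes had medians of 0.15, -0.33, 0.19 and 0.66 in the 4 comparisons, with 3 of 16 higher for exercise in WT and 16 of 16 for genotype with exercise. Of all genes, 34.5% and 65.9% were higher in these comparisons. The CA1-gate median in the last was 0.93. Clock genes had a median of 0.40 there, with 15 of 18 higher against the same 65.9% of all genes, and Per2 stood at 35.7, 22.9, 29.0 and 52.8 CPM. Immediate early genes had a median of -0.34 for exercise in APPNL-G-F, which turned to 0.017 in members with at least 10 UMIs and 0.2% of Tshz2 and Fn1. Single genes went in both directions: Junb had a ratio of -2.53 and Nr4a1, at 57.8, 66.4, 39.6 and 83.8 CPM, one of 1.08. Genes of amyloid precursor processing had medians of -0.14, -0.16, 0.22 and 0.19, near those of all genes.

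**Figure D5:**
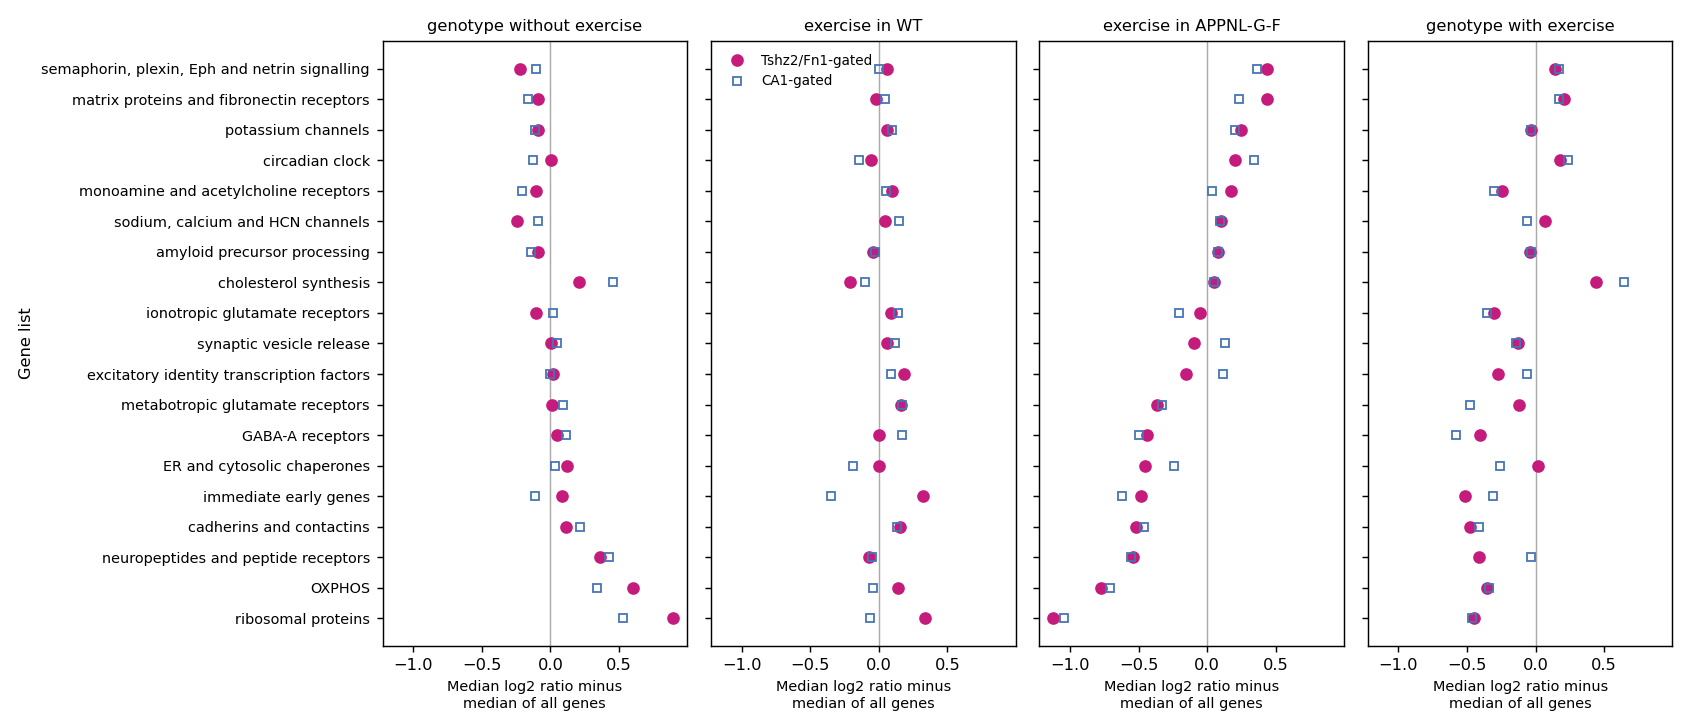
Median log2 ratio of 19 gene lists minus that of all genes, in members (filled circles) and CA1-gated nuclei (open squares), 1 panel a comparison, 1 library a group. Ribosomal protein and OXPHOS genes are farthest from 0 in the panels that hold APPNL-G-F without exercise, on opposite sides, and the 2 gates lie near each other for most lists.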

How the data were processed

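Nuclei of frozen hippocampus were sequenced with a 10x 3′ kit, 1 library a group. The files deposited by the authors hold raw UMI counts, made with Cell Ranger 5.0.1 per the file headers, or 3.1.0 on mm10 per the submitters' processing notes. The sources used here do not say whether introns or strand were used. The members and gene lists were chosen with earlier results of these data known.

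Counts were summed over the nuclei of each library and gate. The CA1 gate required at least 5 UMIs and 0.1% of Mpped1, Fibcd1, Wfs1, Man1a, Pou3f1 and Spink8, and the CA3 gate at least 5 UMIs and 0.2% of the CA3 genes. Gates were compared with edgeR 4.0.16 (TMM, filterByExpr, quasi-likelihood, library as a block because each library gave both sums) in R 4.3.3, checked on simulated data, and DESeq2 1.42.0 was an alternative. An SE is the fold change divided by the square root of the quasi-likelihood F. Conditions were compared as CPM ratios with the exact conditional binomial 95% interval. Named genes in gate comparisons were the 10 highest and 10 lowest calls with 1 sign in all 4 libraries and at least 50 CPM. In conditions they were the 5 highest and 5 lowest ratios with at least 100 UMIs whose higher library had at least 20 CPM and 0.5 times the level over all its kept nuclei. Mitochondrial, ribosomal protein and unnamed gene models were not named. Members were clustered with leidenalg 0.10.2 (2000 genes, 20 components, 15 neighbours, resolution 0.35). Of 32285 gene IDs, 32235 matched GENCODE M21. A few genes that the rules select are not reported here.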

Additional observations from a re-analysis of the deposited data

Results flagged for a closer look

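Among the genes named for exercise, 2 were past 2-fold in opposite directions with exercise in the 2 genotypes, and others differed in sign at smaller size. Tcerg1l had a log2 ratio of -2.14 for exercise in WT and 1.30 for exercise in APPNL-G-F. Cep131, a centriolar satellite protein, had -1.22 and 2.31. Each ratio sets 1 library against 1 other, and the difference between the genotypes was not tested.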

How the results depend on the processing

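Named genes of the gate comparisons kept their direction and call in all 12 settings. Main counts of 1189 (CA1) and 1783 (CA3) became 1010 and 1610 with no replicate block (library unpaired), 1124 and 1700 with DESeq2, 1635 and 2305 with no filter, 1204 and 1830 without called doublets, and 1180 and 1804 without cluster 7. Leaving out 1 library gave 1160 to 1251 and 1770 to 1845, and nuclei thinned to 3000 UMIs gave 1145 for CA3. The shares of members were 2.02%, 1.65%, 2.56% and 1.66% when thinned. They were 2.20%, 2.25%, 2.11% and 1.93% at 10 UMIs and 0.2% of Tshz2 and Fn1, and 9.71%, 11.3%, 10.8% and 8.64% of nuclei passing the other limits. The share in APPNL-G-F without exercise was 4.52% at 1000 genes, so which library is highest depends on these limits.

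Genes past the fold numbered 298, 41, 1080 and 483 in the order of the report. With at least 50 UMIs they numbered 568, 155, 1634 and 863, with at least 200 UMIs 142, 11, 581 and 208, and when thinned 136, 15, 482 and 140. For genotype with exercise, TMM factors gave 314, and 10 UMIs and 0.2% gave 317. At 10 UMIs and 0.2% the median of immediate early genes for exercise in APPNL-G-F turned from -0.34 to 0.017, and the cause was not tested. It was the only 1 of 76 list medians to reverse, but others changed in size. Of the 76, 19 counted as moved with TMM factors, 16 when thinned and 9 with at least 200 UMIs a gene. A further 8 counted as moved at 10 UMIs and 0.2%, and 7 with the cluster mix held. Of 40 named condition values, 12 moved by more than their counting interval when thinned and 0 reversed. Leaving out cluster 7 and holding the cluster mix were added after the data were seen. The comparison of Tshz2-side with Fn1-side members and its alternatives were not run, since 7 nuclei lay on the Fn1 side. Depth limits genes under about 100 UMIs over 2 libraries.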
